A study of Danio rerio with 12 samples.

Results

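The genes described here encode the machinery with which cells digest their own contents: the cathepsins, which are lysosomal proteases, the lysosome-associated membrane proteins (LAMPs), the proton pump that acidifies the lysosome (the vacuolar ATPase) and the core proteins of autophagy. They were chosen by gene name, as those whose names start with cts and a further letter, atp6v, atp6ap, lamp with 1, 2 or 3, atg with a digit, gabarap or map1lc3. Of the 26816 genes listed, 76 had such a name, and 75 of them reached a normalised count of at least 10 in at least 3 libraries, the minimum that 22404 genes passed in all. The 75 genes were 16 cathepsins, 3 LAMP genes, 29 proton pump genes (14 of the V1 sector, 10 of the V0 sector and 5 accessory subunits) and 27 autophagy genes (19 atg genes and 8 genes of the Atg8 family). The gene under the minimum was ctslb (ENSDARG00000039173), in zebrafish a cathepsin of the hatching gland, which had between 0 and 18 normalised counts in any library.

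RNA had been sequenced from whole wild-type zebrafish (Danio rerio) at 5 days post fertilization (dpf), at the eleutheroembryo stage between hatching and independent feeding. The larvae had been exposed through the water from 2 to 5 dpf to tributyltin chloride (TBT), an organotin once used in antifouling paints that binds the nuclear receptors RXR and PPAR gamma. There were 4 groups, control (0 nM), 3 nM, 30 nM and 100 nM TBT, all kept in 0.2% v/v DMSO, with 3 pools of 10 larvae in each. The labels do not say that the pools came from separate clutches, so p-values measure only the spread between pools, which may be technical. In whole larvae, fewer cells of a type and less RNA per cell cannot be told apart.

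Lysosomes are the acidic organelles in which proteins, lipids and sugars delivered by endocytosis, phagocytosis and autophagy are broken down. Cathepsins cut proteins there, LAMPs coat the inner face of the limiting membrane, and the vacuolar ATPase uses its cytosolic V1 sector to hydrolyse ATP and its membrane-embedded V0 sector to move protons into the lumen. In autophagy, ATG proteins build a double membrane around cytoplasm, decorate it with lipid-linked Atg8 proteins (the LC3 and GABARAP families) and hand the closed autophagosome to the lysosome.

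The deposited values were normalised counts, whose totals per library were 26515823 to 30407574 in control pools, 28294209 to 31682021 at 3 nM, 28277738 to 31308532 at 30 nM and 29687308 to 35772586 at 100 nM. They carry no correction for transcript length, so levels are compared between groups and never between genes. Some libraries stood apart: the summed value of 19 neuron marker genes was 66741 in control replicate 2, against 20523 to 42412 in the other 11 libraries, and that of 17 exocrine pancreas genes was 40946 in 100 nM replicate 1, against 107952 to 267482 in the others. Genes with near-identical copies, such as paralogs and names with 2 identifiers, may share reads and are uncertain.

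At 100 nM TBT 8 of the 16 cathepsin genes of lysosomal proteases, all 3 LAMP genes of lysosomal membrane proteins and 10 of the 27 autophagy genes were higher, while most proton pump genes did not pass the test. These counts are from the fit without a replicate block, and with the block more pump genes passed. In all, 24 of the 75 genes (32.0%) differed from control with an adjusted p under 0.05 (limma on log2(value + 1), Benjamini-Hochberg over all 22404 genes), 23 of them higher (30.7%) and 1 lower. Over all genes tested, 17.5% passed this test, 9.63% higher and 7.9% lower. In these 3 classes 0 genes fell, and of the 29 pump genes 2 rose and 1 fell. The 2 include atp6v1c2, which met the minimum of 10 in 3 libraries through its 100 nM pools. The other 8 cathepsins did not pass, and 4 of the 16 had a negative fold change. The median log2 fold change was 0.43 over the cathepsins, 0.56 over the LAMP genes, 0.30 over the autophagy genes and 0.16 over the pump genes, against −0.02 over all genes tested. With all libraries scaled to the same total, which shifted the median of all genes tested to −0.205 (1127 higher and 2865 lower), these medians were 0.24, 0.37 and 0.11 for cathepsins, LAMPs and autophagy genes, and that of the pump genes changed sign to −0.03. No test of the difference between the classes was made.

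The count of 24 was 15 without 100 nM replicate 1, 15 without control replicate 3, 20 without control replicate 2 and 16 with equal totals. Over all 22404 genes tested the count was 3926 with all 12 libraries and the deposited scaling. It was 2649 without 100 nM replicate 1, 2287 without control replicate 3, 3658 without control replicate 2 and 3992 with equal totals. The count over all genes tested thus also fell when these libraries were left out. With equal totals it did not fall, but its genes called higher went from 2157 to 1127 and those called lower from 1769 to 2865. Of the 75 genes, 23 were called higher and 1 lower with the deposited scaling, and 14 and 2 with equal totals. With only the 6 libraries of the groups compared in the fit, 6 genes passed (against 5.15% of all genes tested), namely ctsd, ctsla, ctsba, LAMP1, gabarapb and atg9a, and all of these but atg9a passed under every alternative run.

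All 3 pools at 100 nM lay above all 9 other pools for 21 of the 75 genes, against 8.5% of all genes tested, and below them for 1, against 7.15%. The 21 were 8 cathepsins, 3 LAMP genes, 4 pump genes and 6 autophagy genes, and 18 of them were among the 23 that rose. These 18 include atp6v1c2, which met the minimum through its 100 nM pools, so its place above the others is in part set by the filter. A joint test of the 4 groups passed for 17 genes, 6 cathepsins, 3 LAMP genes, 3 pump genes and 5 autophagy genes, against 12.9% of all genes tested. Without 100 nM replicate 1 this joint count was 9, and with equal totals it was 11. The share of all genes tested passing the joint test under these alternatives was not counted.

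**Figure D1:**
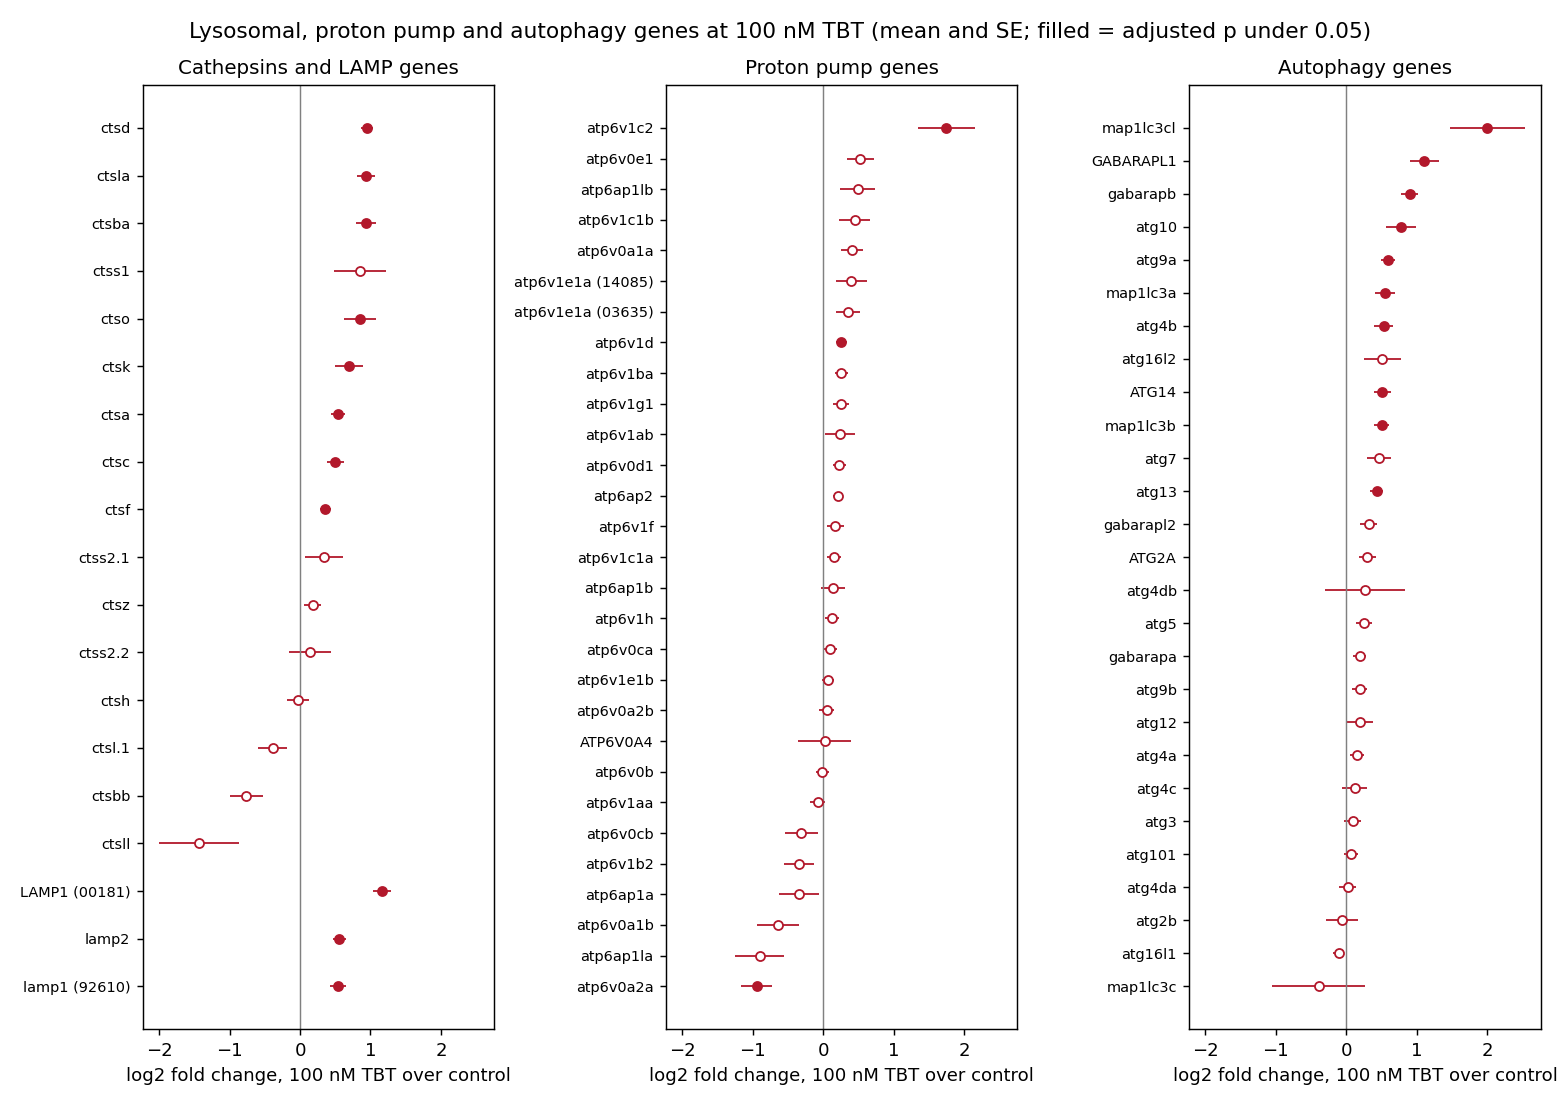
Log2 fold change at 100 nM TBT over control for each of the 75 genes, in 3 panels (cathepsins with LAMP genes, proton pump genes, autophagy genes), with the standard error from limma as a bar and filled points for an adjusted p under 0.05. Filled points lie right of 0 for all genes called except atp6v0a2a, at −0.94, and most pump genes have open points near 0.

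Among the cathepsins, the endopeptidase genes ctsd, ctsla and ctsba had the lowest p and close to the same fold. The gene of the aspartic protease cathepsin D, ctsd (ENSDARG00000057698), had 6311, 5708 and 5691 normalised counts in the control pools, 6836, 6169 and 6471 at 3 nM, 6753, 6591 and 6470 at 30 nM and 12016, 11184 and 10949 at 100 nM. The cathepsin L gene ctsla (ENSDARG00000007836) had 21761, 17736 and 19124 normalised counts in the control pools, 17323, 17645 and 19846 at 3 nM, 15934, 17492 and 19801 at 30 nM and 37194, 35239 and 39824 at 100 nM. The cathepsin B gene ctsba (ENSDARG00000055120) had 5414, 3907 and 4617 normalised counts in the control pools, 5236, 5001 and 5501 at 3 nM, 5519, 4902 and 5625 at 30 nM and 10490, 8339 and 7900 at 100 nM. For all 3 genes the 100 nM pools were far above every other pool. The control, 3 nM and 30 nM pools overlapped for ctsla and ctsba, and for ctsd the 30 nM pools lay just above the control pools. At 100 nM the log2 fold change was 0.95 ± 0.09 (SE, adjusted p = 7.14e-05) for ctsd. For ctsla it was 0.94 ± 0.13 (SE, adjusted p = 0.00067). For ctsba it was 0.94 ± 0.14 (SE, adjusted p = 0.00107). These are folds of 1.93, 1.92 and 1.92 on the log2(value + 1) scale.

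Smaller rises were measured for exopeptidase and other cysteine protease genes. The gene of cathepsin A, ctsa (ENSDARG00000098114), a serine carboxypeptidase that also shields lysosomal beta-galactosidase and neuraminidase, had 1060, 986 and 1079 normalised counts in the control pools, 1073, 1019 and 1104 at 3 nM, 1091, 1129 and 1032 at 30 nM and 1656, 1333 and 1564 at 100 nM. The gene of cathepsin C, ctsc (ENSDARG00000101334), a dipeptidyl peptidase that activates granule serine proteases in mammals, had 1818, 1489 and 1730 normalised counts in the control pools, 1582, 1513 and 1560 at 3 nM, 1933, 1511 and 1632 at 30 nM and 2667, 2134 and 2340 at 100 nM. The cysteine protease gene ctsf (ENSDARG00000063095) had 6171, 6510 and 5906 normalised counts in the control pools, 5937, 6033 and 5791 at 3 nM, 6407, 6495 and 6216 at 30 nM and 8308, 7882 and 7680 at 100 nM. In these 3 genes the 100 nM pools also lay above all 9 others, with a smaller gap. Log2 fold changes were 0.54 ± 0.10 (SE, adjusted p = 0.00309) for ctsa, 0.50 ± 0.12 (SE, adjusted p = 0.0146) for ctsc and 0.36 ± 0.08 (SE, adjusted p = 0.0111) for ctsf.

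The cysteine protease gene ctso (ENSDARG00000052855) had 265, 171 and 225 normalised counts in the control pools, 265, 184 and 283 at 3 nM, 289, 224 and 236 at 30 nM and 400, 298 and 503 at 100 nM. The cathepsin K gene ctsk (ENSDARG00000040251), known in mammals for degrading bone collagen in osteoclasts, had 1210, 809 and 872 normalised counts in the control pools, 1048, 900 and 1166 at 3 nM, 1280, 909 and 1050 at 30 nM and 1850, 1172 and 1656 at 100 nM. The 100 nM pools of ctso were above all others by a narrow margin, and those of ctsk overlapped the control pools. The fit gave log2 fold changes of 0.85 ± 0.23 (SE, adjusted p = 0.0274) for ctso and 0.69 ± 0.20 (SE, adjusted p = 0.0381) for ctsk.

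The other 8 cathepsins did not pass the test, and some had lower means at 100 nM. The second cathepsin B gene, ctsbb (ENSDARG00000101051), had 559, 624 and 383 normalised counts in the 100 nM pools, against 597, 924 and 1171 in the control pools, a log2 fold change of −0.76, adjusted p = 0.0551. The cathepsin L family gene ctsl.1 (ENSDARG00000003902) had 6844, 5292 and 4197 normalised counts in the 100 nM pools, against 5416, 6996 and 9112 in the control pools, a log2 fold change of −0.39, adjusted p = 0.233. Its relative ctsll had 24, 4 and 19 normalised counts in the 100 nM pools, against 41, 20 and 54 in the control pools, a log2 fold change of −1.43, adjusted p = 0.11. The 100 nM pools of ctsbb and ctsl.1 overlapped the control pools, and so did those of ctsll. With equal totals ctsbb passed the test as lower (−0.94, adjusted p = 0.0399), and so it did with the replicate block (adjusted p = 0.0216). When single libraries were left out, its adjusted p in limma ranged from 0.00865 to 0.206, with all log2 fold changes negative (−1.02 to −0.54).

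Cathepsin S genes, known in mammals from antigen-presenting cells, did not pass the test. The gene ctss1 had 40, 48 and 40 normalised counts in the 100 nM pools, against 26, 34 and 14 in the control pools, and although these pools did not overlap, its log2 fold change of 0.85 did not pass (adjusted p = 0.148). For ctss2.1 the log2 fold change was 0.34, adjusted p = 0.424, and for ctss2.2 it was 0.14, adjusted p = 0.788. In the RefSeq gene table of assembly GRCz12tu, 71 different names of the 76 genes matching the name rule were found as symbols. There ctsk, ctss2.1 and ctss2.2 are neighbours, and of these 3 only ctsk passed the test. The carboxypeptidase gene ctsz (0.18, adjusted p = 0.344) and the aminopeptidase gene ctsh (−0.03, adjusted p = 0.906) did not pass either.

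The cathepsin count was 5 without 100 nM replicate 1 or control replicate 3. Over all genes tested 2649 and 2287 passed in these fits, against 3926 with all 12 libraries. The call of ctsf ended without control replicate 3 (adjusted p = 0.054), with equal totals (0.279) and with quantile normalisation (0.135), and ranged from 0.00206 to 0.279 over all alternatives. The ctsc call ended without 100 nM replicate 1 (0.0576, range 0.000641 to 0.0926). The ctso call ended without 100 nM replicate 1 (0.0761) or 3 (0.104) and without control replicate 2 (0.0814) or 3 (0.0724), with a range of 0.00094 to 0.104. The ctsk call ended when any of 7 libraries was left out, namely 100 nM replicates 1 (0.137) and 3 (0.114), 30 nM replicate 3 (0.0568), 3 nM replicates 1 (0.0557) and 3 (0.0503) and control replicates 2 (0.106) and 3 (0.129), and with quantile normalisation (0.057), with a range of 0.00101 to 0.137.

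All 3 LAMP genes rose at 100 nM. The files list lamp1 under 2 identifiers, and the one in capitals changed more. LAMP1 (ENSDARG00000100181) had 491, 390 and 396 normalised counts in the control pools, 355, 407 and 347 at 3 nM, 445, 476 and 424 at 30 nM and 1074, 976 and 813 at 100 nM. The other, lamp1 (ENSDARG00000092610, named lamp1b in the gene name table), had 822, 1031 and 895 normalised counts in the control pools, 962, 1102 and 950 at 3 nM, 979, 985 and 869 at 30 nM and 1354, 1431 and 1208 at 100 nM. The gene of LAMP2, which takes part in chaperone-mediated autophagy and in lysosome fusion, lamp2 (ENSDARG00000014914), had 2521, 2234 and 2459 normalised counts in the control pools, 2080, 2025 and 2246 at 3 nM, 2344, 2339 and 2331 at 30 nM and 3984, 3372 and 3286 at 100 nM. In all 3 genes every 100 nM pool exceeded all 9 others, and the 30 nM pools lay within the range of the control pools. The log2 fold change was 1.16 ± 0.13 (SE, adjusted p = 0.000215), a fold of 2.24 for LAMP1. For lamp1 it was 0.54 ± 0.11 (SE, adjusted p = 0.00727), and for lamp2 0.56 ± 0.09 (SE, adjusted p = 0.00235). With equal totals the adjusted p of lamp1 was 0.142, the highest over its alternatives (lowest 0.000577).

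**Figure D2:**
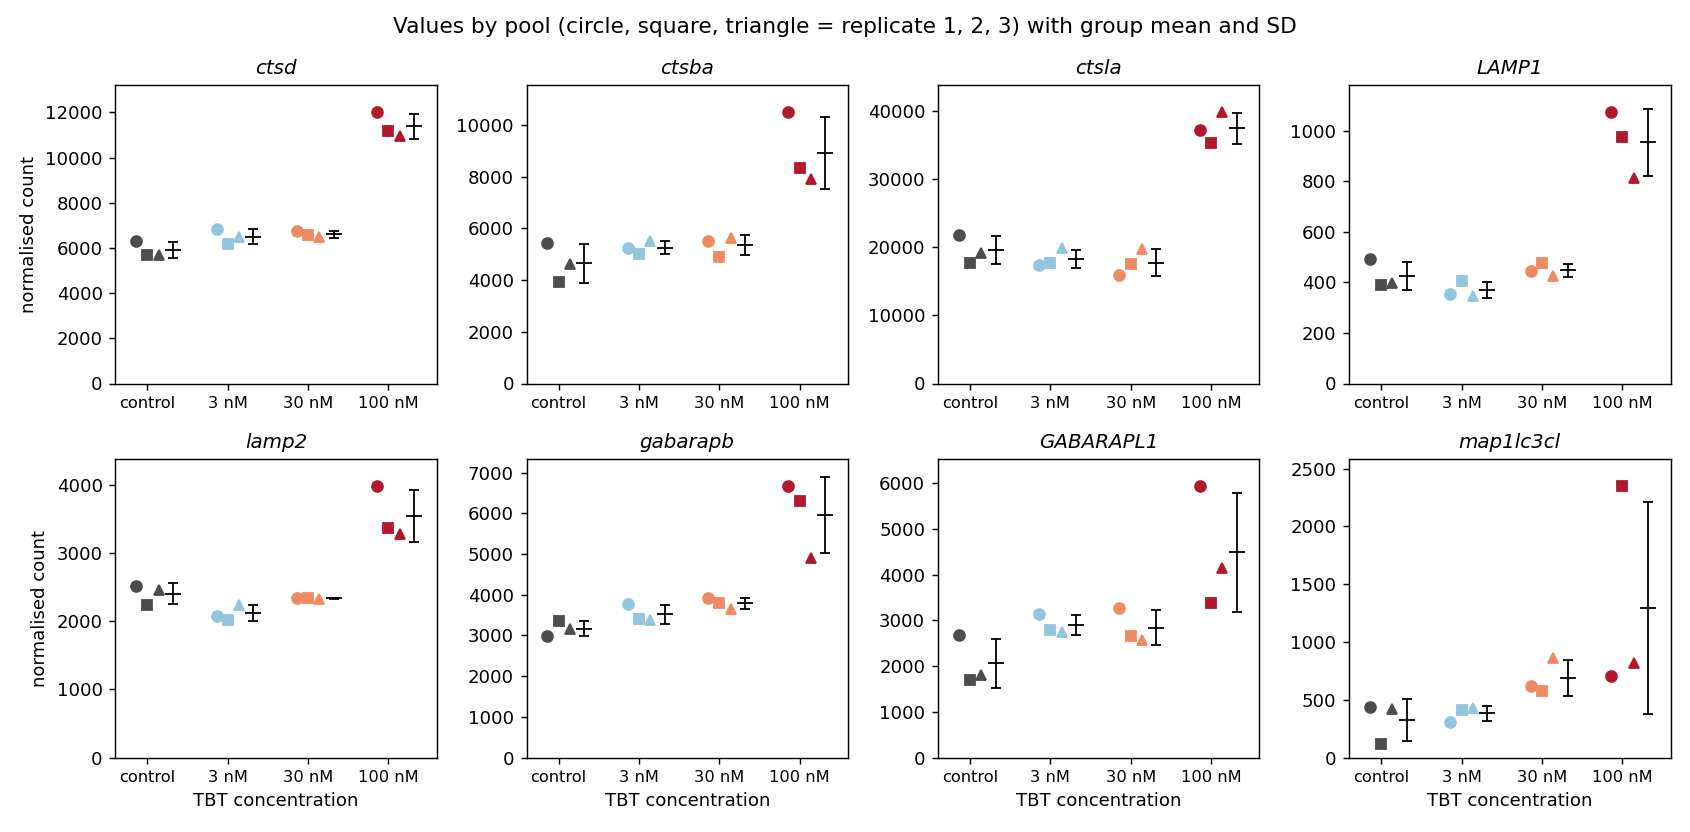
Normalised counts in each of the 12 pools for 8 genes (ctsd, ctsba, ctsla, LAMP1, lamp2, gabarapb, GABARAPL1, map1lc3cl), by TBT concentration, with replicates 1, 2 and 3 as circle, square and triangle and the group mean and SD beside them. The 100 nM pools stand above all others for 7 genes, and for map1lc3cl a single 100 nM pool reaches 2348 while the other 2 lie at 705 and 822.

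Of the 29 proton pump genes, 3 passed the test at 100 nM in the fit without a replicate block (10.3%, against 17.5% of all genes tested), 2 higher and 1 lower. With equal totals 13 had a positive and 16 a negative fold change, against 21 and 8 with the deposited scaling. The median over all genes tested was −0.205 with equal totals and −0.02 with the deposited scaling. With the replicate block 13 of the 29 passed (10 higher, 3 lower), against 34.3% of all genes tested, so the place of the pump genes beside that share depended on the block. In the V1 sector 2 of 14 genes rose (14.3%, against 9.63% of all genes tested). The gene of subunit D, the central rotor shaft of the pump, atp6v1d (ENSDARG00000011175), had 2900, 3069 and 2929 normalised counts in the control pools, 2765, 2786 and 2661 at 3 nM, 2908, 2965 and 2977 at 30 nM and 3797, 3342 and 3544 at 100 nM. The gene of a C subunit, the part that clamps V1 to V0, atp6v1c2 (ENSDARG00000070440), was near the detection minimum, with 2, 3 and 6 normalised counts in the control pools, 9, 5 and 8 at 3 nM, 8, 10 and 6 at 30 nM and 12, 18 and 12 at 100 nM. In both genes the 100 nM pools were above all 9 others. Only 1 pool outside 100 nM, at 30 nM, had 10 or more normalised counts of atp6v1c2, so this gene met the minimum of 10 in 3 libraries through its 100 nM pools, and its call has to be read with that. The log2 fold change was 0.26 ± 0.08 (SE, adjusted p = 0.038) for atp6v1d and 1.75 ± 0.40 (SE, adjusted p = 0.0115) for atp6v1c2.

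In the V0 sector 0 of 10 genes rose and 1 fell, against 9.63% and 7.9% of all genes tested. In limma 4 of the 10 had an unadjusted p under 0.05, for which the share of all genes tested was not counted. The one that fell encodes an a subunit, the membrane part through which protons pass and which directs the pump to a compartment: atp6v0a2a (ENSDARG00000035538) had 147, 245 and 226 normalised counts in the control pools, 155, 196 and 166 at 3 nM, 164, 201 and 174 at 30 nM and 79, 111 and 130 at 100 nM. Every 100 nM pool was below all 9 others. Its log2 fold change was −0.94 ± 0.22 (SE, adjusted p = 0.0146), so that the value at 100 nM was lower by a fold of 1.92. Of the other a subunit genes, atp6v0a1a (0.41), atp6v0a1b (−0.64), atp6v0a2b (0.05) and ATP6V0A4 (0.02) did not pass, with adjusted p of 0.0901, 0.168, 0.801 and 0.982. The proteolipid ring genes atp6v0ca (0.10), atp6v0cb (−0.31) and atp6v0b (−0.01), atp6v0d1 of the stalk (0.23) and atp6v0e1 (0.53) did not pass either.

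The remaining V1 genes had log2 fold changes between −0.34 and 0.45. The catalytic A subunit genes atp6v1aa (−0.08) and atp6v1ab (0.24), the B subunit genes atp6v1ba (0.26) and atp6v1b2 (−0.34), and the C subunit genes atp6v1c1a (0.16) and atp6v1c1b (0.45) did not pass. Neither did the stator and rotor genes atp6v1e1b (0.07), atp6v1f (0.17), atp6v1g1 (0.25) and atp6v1h (0.12). The name atp6v1e1a stands for 2 identifiers, of which ENSDARG00000014085 had a log2 fold change of 0.40 and ENSDARG00000003635, which the gene name table gives as mogat3b, one of 0.35. None of the 5 accessory genes passed in limma, against 17.5% of all genes tested. They were atp6ap2, the prorenin receptor gene (0.21), atp6ap1a (−0.34), atp6ap1b (0.14), atp6ap1la (−0.90) and atp6ap1lb (0.49). Of the 5, 2 had an unadjusted p under 0.05, for which the share of all genes tested was not counted. Among these V1 and accessory genes atp6v1ba and atp6ap2 had all 100 nM pools above the 9 others, with adjusted p of 0.0631 and 0.0648.

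The number of pump genes called turned on single libraries, and the number over all genes tested moved the same way. For the pump genes it was 1 without 100 nM replicate 1 or without control replicate 3. It was 9 without 100 nM replicate 2 (7 higher, 2 lower) or without control replicate 1 (5 higher, 4 lower). Over all genes tested 3926 passed with all 12 libraries. This number was 2649 without 100 nM replicate 1 and 2287 without control replicate 3. It was 4634 without 100 nM replicate 2 and 4603 without control replicate 1. The 4 lower genes without control replicate 1 were atp6v0a2a (−1.16, adjusted p = 0.00369), atp6v0a1b (−0.97, 0.0228), atp6ap1la (−1.24, 0.0234) and atp6v1b2 (−0.57, 0.0398). The call of atp6v1d held only without 100 nM replicate 2 or control replicate 2 among the fits that left out 1 library. Its adjusted p ranged from 0.0153 to 0.64 over all alternatives, with 0.126 without 100 nM replicate 1, 0.0867 without 100 nM replicate 3, 0.0575 to 0.0602 without a 30 nM pool, 0.0569 to 0.0594 without a 3 nM pool, and 0.0719 and 0.117 without control replicates 1 and 3. The call of atp6v0a2a ended without 100 nM replicate 1 (0.0548) or control replicate 3 (0.0641), with a range of 0.000803 to 0.102. For atp6v1c2 the log2 fold change was 0.81 with a pseudocount of 10, against 1.75 with a pseudocount of 1.

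For 3 pairs of zebrafish pump paralogs, chosen after the values were seen, the 2 genes of a pair differed in how they varied between pools. For atp6v0a1b the values were 1136, 2695 and 1905 normalised counts in the control pools, 1153, 1683 and 1212 at 3 nM, 1304, 1639 and 1362 at 30 nM and 913, 1612 and 1053 at 100 nM. For its paralog atp6v0a1a they were 3668, 2403 and 2670 normalised counts in the control pools, 2920, 2649 and 2790 at 3 nM, 3292, 2852 and 3233 at 30 nM and 4091, 3253 and 4147 at 100 nM. In all 4 groups replicate 2 was the highest pool of atp6v0a1b and the lowest of atp6v0a1a. Replicate 2 was also the highest pool of every group for the ring subunit gene atp6v0cb, with 2903, 5731 and 4156 normalised counts in the control pools, 2985, 3874 and 3002 at 3 nM, 3221, 3715 and 3290 at 30 nM and 2811, 4170 and 3079 at 100 nM, and for the B subunit gene atp6v1b2, with 1061, 2012 and 1502 normalised counts in the control pools, 1083, 1342 and 1105 at 3 nM, 1208, 1384 and 1279 at 30 nM and 1037, 1436 and 1069 at 100 nM. Their paralogs atp6v0ca and atp6v1ba did not have this order, with 8832, 7536 and 8043 normalised counts in the 100 nM pools, against 8153, 7489 and 7186 in the control pools for atp6v0ca and 5195, 4648 and 5026 normalised counts in the 100 nM pools, against 4406, 3985 and 4017 in the control pools for atp6v1ba.

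In all, 9 of 29 pump genes (31.0%) had replicate 2 as the highest pool in each of the 4 groups, namely atp6v0a1b, atp6v0cb, atp6v1ab, atp6v1b2, atp6v1c1a, atp6v1e1a (ENSDARG00000003635), atp6ap1a, atp6ap1la and atp6ap1lb. Among them are both atp6ap1la and atp6ap1lb, so that this pair did not differ in the order. None of the 16 cathepsins and none of the 27 autophagy genes did, nor did any LAMP gene other than lamp1, and over all genes tested the share was 16.4%. Of 19 neuron marker genes, from a list written after the data had been seen, 18 (94.7%) had this order. Their summed value was 26296, 66741 and 42412 in control replicates 1, 2 and 3, 23652, 37345 and 23648 at 3 nM, 29403, 36487 and 29848 at 30 nM, and 20523, 42083 and 25094 at 100 nM. Control replicate 2 was the highest of all 12 libraries for atp6v0a1b, atp6v0cb, atp6v1b2, atp6ap1a, atp6ap1la, atp6v0a2a and atp6v0b. At 100 nM 1 of the 19 neuron markers was called (against 17.5% of all genes tested), the synapsin gene syn1 (−1.71, adjusted p = 0.0265). Its 100 nM pools, at 225, 621 and 298, overlapped the control pools, at 587, 2008 and 1245. The median over the list was −0.46 at 100 nM, −0.39 at 30 nM and −0.50 at 3 nM, all against the same control pools. The part of neuronal RNA in the pump values was not tested.

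**Figure D3:**
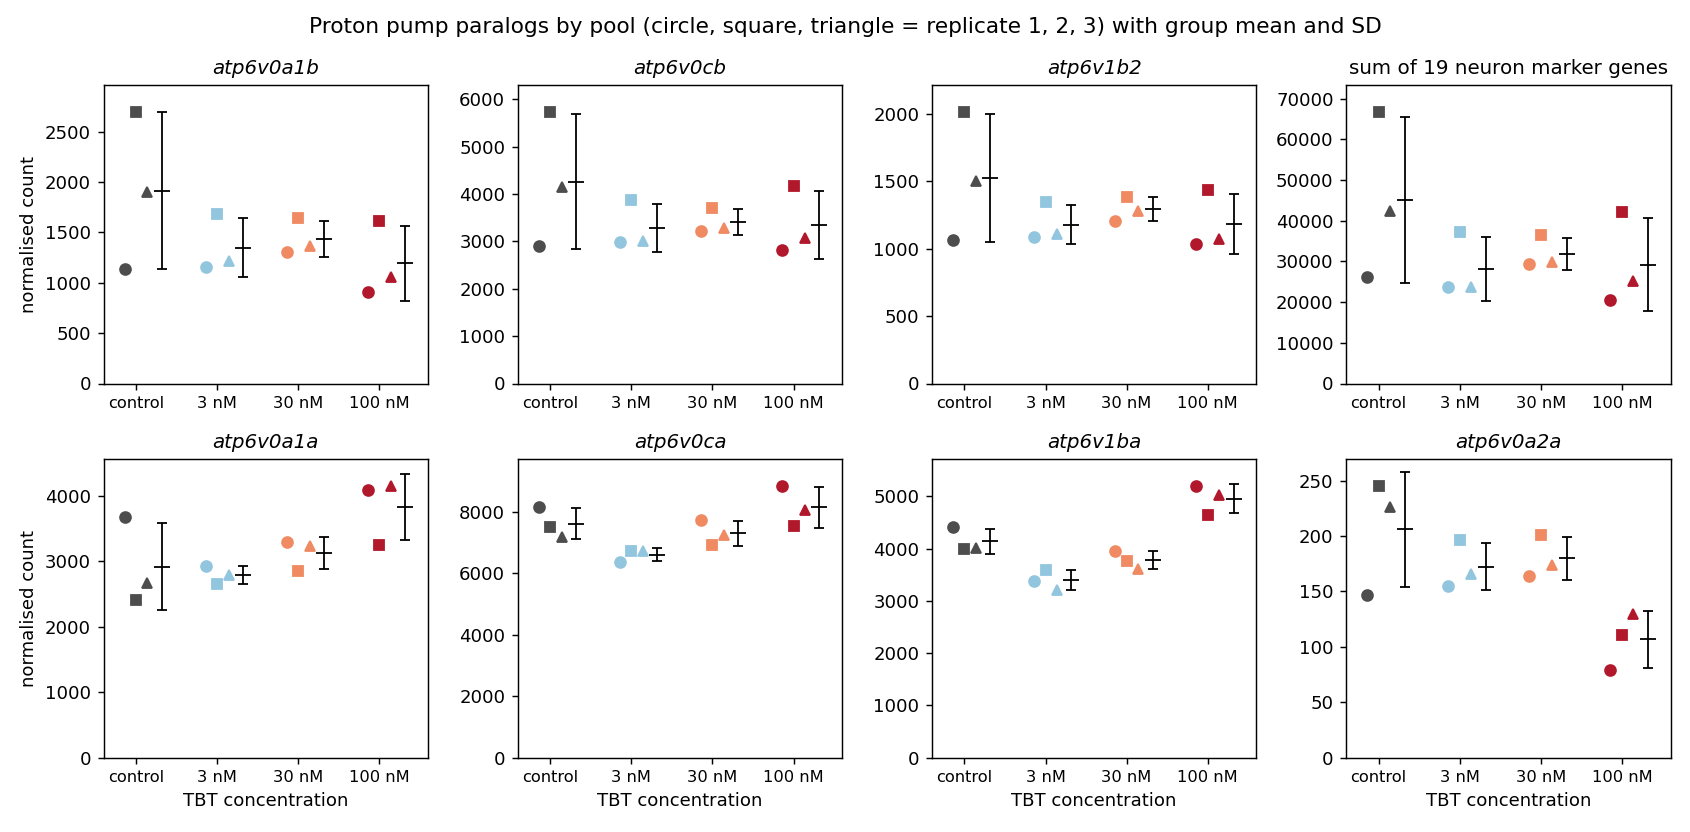
Normalised counts by pool and TBT concentration for 7 pump genes and the summed value of 19 neuron marker genes, with replicates 1, 2 and 3 as circle, square and triangle and the group mean and SD beside them. In the upper row replicate 2 is the highest pool of every group for atp6v0a1b, atp6v0cb, atp6v1b2 and the neuron sum, and in the lower row atp6v0a1a, atp6v0ca and atp6v1ba lack this order while atp6v0a2a at 100 nM lies at 79 to 130, under all other pools.

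The autophagy genes that rose at 100 nM were 5 of the 8 genes of the Atg8 family and 5 of the 19 atg genes, against 9.63% of all genes tested. No test of the difference between these groups was made. The median log2 fold change of the Atg8 family was 0.53 (0.30 over all 27 autophagy genes, and 0.11 for these with equal totals). Of the GABARAP group, gabarapb (ENSDARG00000052082) had 2977, 3350 and 3164 normalised counts in the control pools, 3776, 3391 and 3382 at 3 nM, 3921, 3804 and 3645 at 30 nM and 6666, 6291 and 4909 at 100 nM. GABARAPL1 (ENSDARG00000040971) had 2685, 1695 and 1807 normalised counts in the control pools, 3144, 2785 and 2751 at 3 nM, 3276, 2667 and 2582 at 30 nM and 5939, 3392 and 4138 at 100 nM. For both genes the 100 nM pools were above all 9 others. Log2 fold changes of 0.90 ± 0.12 (SE, adjusted p = 0.000459) for gabarapb and 1.11 ± 0.21 (SE, adjusted p = 0.00477) for GABARAPL1 were estimated. The related gabarapl2 (0.32, adjusted p = 0.0813) and gabarapa (0.19, adjusted p = 0.178) did not pass.

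Of the LC3 group, map1lc3b (ENSDARG00000101127) had 3329, 3690 and 3321 normalised counts in the control pools, 4011, 3695 and 3848 at 3 nM, 3816, 4250 and 3398 at 30 nM and 5586, 4608 and 4526 at 100 nM. The gene map1lc3a (ENSDARG00000033609) had 2102, 2114 and 1829 normalised counts in the control pools, 2557, 2295 and 2213 at 3 nM, 2473, 2342 and 2079 at 30 nM and 3688, 2780 and 2476 at 100 nM. The 100 nM pools of map1lc3b were above all others, and those of map1lc3a were above the control pools but overlapped the 3 nM pools. The gene map1lc3cl (ENSDARG00000075727) had 441, 114 and 418 normalised counts in the control pools, 307, 407 and 432 at 3 nM, 619, 577 and 864 at 30 nM and 705, 2348 and 822 at 100 nM. Its 100 nM pools were above the control pools, with replicate 2 far above the other 2 and below them in control. The log2 fold change was 0.50 ± 0.11 (SE, adjusted p = 0.0105) for map1lc3b, 0.55 ± 0.14 (SE, adjusted p = 0.0212) for map1lc3a and 2.00 ± 0.53 (SE, adjusted p = 0.0232) for map1lc3cl. The call of map1lc3cl ended without 100 nM replicate 2, where its log2 fold change was 1.37 (adjusted p = 0.0553, range over alternatives 0.0144 to 0.129). The low-count gene map1lc3c, at 2 to 29 normalised counts, gave −0.39, adjusted p = 0.733.

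The 5 atg genes that rose (26.3% of 19, against 9.63% of all genes tested) act at several steps of autophagosome formation. At initiation, atg13 (ENSDARG00000036040), a subunit of the ULK kinase complex, had 1688, 1661 and 1723 normalised counts in the control pools, 1911, 1717 and 1698 at 3 nM, 1861, 1900 and 1682 at 30 nM and 2378, 2437 and 2037 at 100 nM. ATG14 (ENSDARG00000002670), which brings the phosphatidylinositol 3-kinase complex to the forming membrane, had 629, 622 and 640 normalised counts in the control pools, 719, 724 and 653 at 3 nM, 744, 734 and 664 at 30 nM and 995, 1001 and 721 at 100 nM. The gene of the membrane-spanning ATG9 protein that seeds the structure, atg9a (ENSDARG00000044551), had 931, 1005 and 917 normalised counts in the control pools, 1105, 1041 and 949 at 3 nM, 1036, 1170 and 1102 at 30 nM and 1429, 1552 and 1323 at 100 nM. The 100 nM pools of atg13 and atg9a were above all others, and those of ATG14 were above the control pools only. On the log2 scale the fold change was 0.43 ± 0.09 (SE, adjusted p = 0.00989) for atg13, 0.51 ± 0.12 (SE, adjusted p = 0.0169) for ATG14 and 0.59 ± 0.10 (SE, adjusted p = 0.00173) for atg9a. The initiation gene atg101 (0.07), the paralog atg9b (0.19) and the lipid transfer genes ATG2A (0.30) and atg2b (−0.06) did not pass.

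In the conjugation systems, atg10 (ENSDARG00000104846), the E2-like enzyme that joins ATG12 to ATG5, had 182, 110 and 142 normalised counts in the 100 nM pools, against 82, 81 and 84 in the control pools, a log2 fold change of 0.78 ± 0.21 (SE, adjusted p = 0.0277). The Atg8-processing protease gene atg4b (ENSDARG00000052104) had 715, 642 and 585 normalised counts in the 100 nM pools, against 549, 384 and 420 in the control pools, a log2 fold change of 0.53 ± 0.14 (SE, adjusted p = 0.0267). Both had 100 nM pools above all control pools. The E1-like atg7 (0.47), the E2-like atg3 (0.09), atg5 (0.25), atg12 (0.19), atg16l1 (−0.11) and atg16l2 (0.51) did not pass. Neither did the other protease genes atg4a (0.15), atg4c (0.12), atg4da (0.02) and atg4db (0.27).

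With equal totals 4 of the 27 autophagy genes were called, all of them higher, and without 100 nM replicate 1 or control replicate 3, 6. Over all genes tested 3992 passed with equal totals (1127 higher, 2865 lower), against 3926 with the deposited scaling (2157 higher, 1769 lower). Without 100 nM replicate 1 or control replicate 3 the number passing over all genes tested was 2649 or 2287. The genes that lost their call with equal totals were atg13 (0.175), ATG14 (0.144), map1lc3b (0.0914), map1lc3a (0.0721), atg9a (0.0695) and atg4b (0.0611). Over all alternatives adjusted p ran from 0.002 to 0.175 for atg13, 0.00197 to 0.144 for ATG14, 0.00267 to 0.0914 for map1lc3b, 0.00104 to 0.124 for map1lc3a and 0.000269 to 0.0695 for atg9a. Calls also ended without 100 nM replicate 1 for ATG14 (0.0667), map1lc3a (0.0615), atg10 and atg4b, and without control replicate 3 for ATG14 (0.0517), map1lc3a (0.0902), atg10 and atg4b. The atg10 call ended as well without 100 nM replicate 3 or control replicate 2 (0.106 at most) and the atg4b call without control replicate 2 (0.0991 at most).

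**Figure D4:**
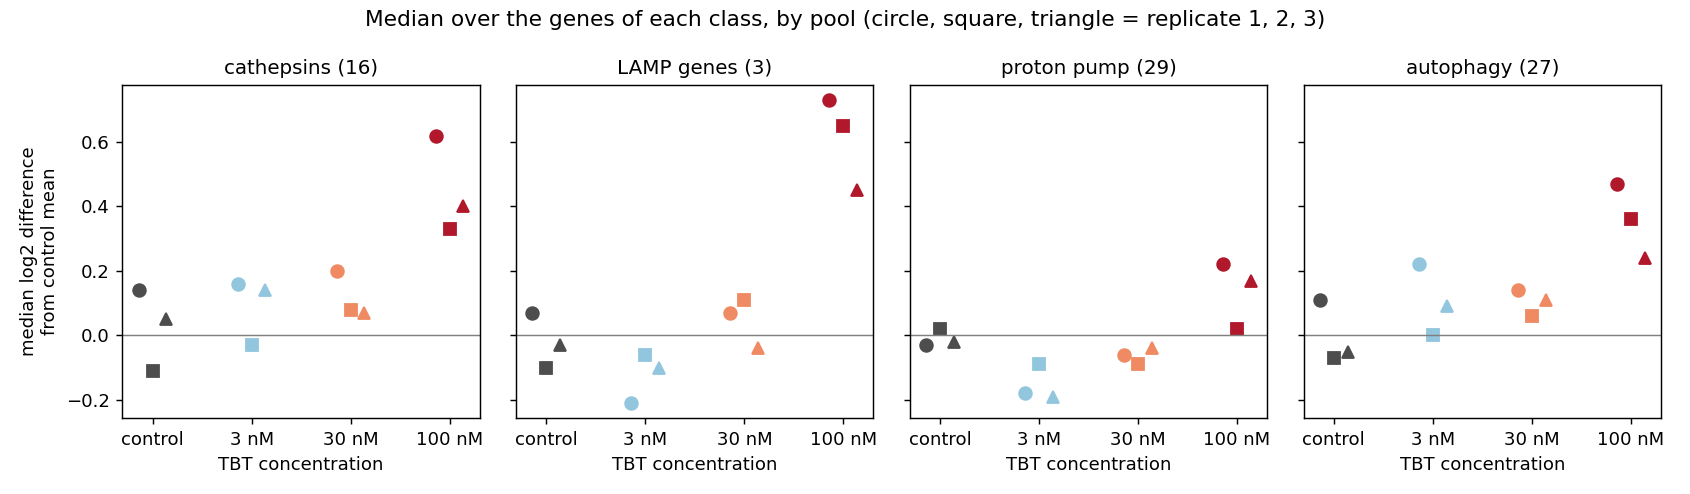
Median over the genes of each class of the log2 difference from the control mean, in each of the 12 pools, by TBT concentration. The 3 pools at 100 nM lie at 0.62, 0.33 and 0.40 for cathepsins, 0.73, 0.65 and 0.45 for LAMP genes, 0.22, 0.02 and 0.17 for pump genes and 0.47, 0.36 and 0.24 for autophagy genes with the deposited scaling. With equal totals the median over the pump genes of the limma log2 fold change, which is not a value per pool, is −0.03, against −0.205 over all genes tested.

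At the lower concentrations no gene of the 75 passed the test in the fit without a replicate block. At 30 nM 0 of 75 were called by limma, against 0.531% of all genes tested, and 5 had an unadjusted p under 0.05, namely gabarapb (0.26), atg9a (0.21), GABARAPL1 (0.49), map1lc3cl (1.29) and atp6v1c2 (1.01). All 5 of these log2 fold changes were positive. At 3 nM 0 of 75 were called, against 0.0402% of all genes tested, and 5 had an unadjusted p under 0.05, namely GABARAPL1 (0.52), atp6v1c2 (0.89), atg9b (0.30), atp6v1ba (−0.29) and atp6v1aa (−0.33). In the 3 and 30 nM pools atp6v1c2 had only 5 to 10 normalised counts, and it met the minimum through its 100 nM pools. The share of all genes tested with an unadjusted p under 0.05 was not counted, so these genes are named without a result being drawn from them. The comparisons of 3, 30 and 100 nM share the same 3 control pools, so their signs are not independent.

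The class medians at the lower concentrations lay between −0.18 and 0.19. Over the LAMP genes the median log2 fold change was −0.18 at 3 nM, 0.05 at 30 nM and 0.56 at 100 nM. Over the cathepsins it was 0.09 at 3 nM, 0.10 at 30 nM and 0.43 at 100 nM. Over the autophagy genes it was 0.15, 0.10 and 0.30 at the same concentrations, and over the Atg8 family 0.19, 0.18 and 0.53. Over the pump genes it was −0.15 at 3 nM, with 23 of 29 genes negative, −0.06 at 30 nM and 0.16 at 100 nM. The last of these changed sign to −0.03 with equal totals, where the median over all genes tested was −0.205. With the deposited scaling the medians over all genes tested were 0.01, 0.00 and −0.02.

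Between 100 and 30 nM, a comparison in which the control pools enter only through the shared spread, 12 of the 75 genes were higher at 100 nM (5.29% of all genes tested) and 0 lower (3.95%), while 9.23% of all genes tested passed in either direction. They were the cathepsin genes ctsla (1.08), ctsd (0.78), ctsba (0.73), ctsa (0.48), ctsc (0.49) and ctsf (0.32), the 3 LAMP genes LAMP1 (1.08), lamp2 (0.60) and lamp1 (0.49), the autophagy genes gabarapb (0.64) and atg9a (0.38) and the pump gene atp6v1ba (0.39), with log2 fold changes in parentheses. Their adjusted p ranged from 0.000404 for ctsd to 0.0313 for ctsf. The pump gene atp6v1ba had 5195, 4648 and 5026 normalised counts at 100 nM, against 3958, 3756 and 3613 at 30 nM, with an adjusted p of 0.0177. Without 30 nM replicate 3, 6 genes were called (against 4.65% of all genes tested), and with only the groups compared in the fit, 7 (against 5.2%).

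Lysosomal and autophagy genes outside the name rule were read from lists chosen with earlier results of these data known. Of 57 lysosomal hydrolases and activators, 14 rose and 3 fell at 100 nM (8 and 5 with equal totals), with a median log2 fold change of 0.24, and 0.05 with equal totals. Over all genes tested 9.63% rose and 7.9% fell, and with equal totals 1127 rose and 2865 fell. The lowest p belonged to the acid phosphatase gene acp5b (1.08, adjusted p = 0.000262), the sphingolipid activator precursor gene psap (0.81, adjusted p = 0.0007) and the glucosamine sulfatase gene gnsa (0.77, adjusted p = 0.000961). Of 69 lysosomal membrane and sorting genes, 18 rose and 1 fell (10 and 2 with equal totals), with a median of 0.22, and 0.03 with equal totals, led by the tetraspanin gene cd63 (0.94, adjusted p = 0.00012), the calcium channel gene mcoln1a (0.85, adjusted p = 0.000227) and the nucleic acid transporter gene sidt2 (0.92, adjusted p = 0.000229). In cd63 the values were 8794, 8550 and 7885 normalised counts in the 100 nM pools, against 4914, 4092 and 4155 in the control pools, without overlap.

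Of 17 other pump and assembly genes 2 rose and 0 fell with a median of 0.10, while 9.63% of all genes tested rose and 7.9% fell. With equal totals the median was −0.08, and 0 rose and 3 fell. Over all genes tested equal totals gave a median of −0.205, with 1127 genes higher and 2865 lower. The 2 that rose with the deposited scaling were rab20 (0.49, adjusted p = 0.00405), of a small GTPase of endosomes, and tcirg1a (0.46, adjusted p = 0.0204). The gene tcirg1a encodes a further a subunit of V0, and its mammalian counterpart serves osteoclasts. The tcirg1a values were 292, 338 and 274 normalised counts in the 100 nM pools, against 224, 237 and 195 in the control pools. They did not overlap.

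For the next 2 lists the share over all genes tested is again 9.63% higher and 7.9% lower at 100 nM. With equal totals the median over all genes tested was −0.205. Of 62 other autophagy genes 18 rose and 0 fell (9 and 3 with equal totals), with a median of 0.22, and 0.03 with equal totals. The lowest p belonged to the pseudokinase gene trib3 (1.49, adjusted p = 7.14e-05), the stress-responsive sestrin gene sesn2 (1.64, adjusted p = 0.000129) and the mitophagy receptor gene bnip3lb (0.96, adjusted p = 0.000171). In a list of 41 genes of the TFEB family of lysosomal transcription factors and of the mTORC1 kinase at the lysosome, 8 rose and 0 fell (5 and 2 with equal totals), with a median of 0.16, and −0.03 with equal totals. They were led by tfe3a, which encodes a TFEB relative, with 537, 690 and 527 normalised counts in the 100 nM pools, against 203, 237 and 241 in the control pools (1.35, adjusted p = 0.000121). The other 2 with the lowest p were the mTORC1 inhibitor gene akt1s1 (0.84, adjusted p = 0.000927) and gatsl2 (0.57, adjusted p = 0.00172).

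Some markers of cell types rich in lysosomes were called at 100 nM, where 9.63% of all genes tested rose and 7.9% fell. Of 8 neutrophil markers 5 rose and 0 fell (3 and 1 with equal totals), and their summed value was 6199 to 8342 in 100 nM pools and 3017 to 4027 in control pools. Those with the lowest p were mmp13a (2.61, adjusted p = 0.000391), mmp9 (1.90, adjusted p = 0.00128) and srgn (0.94, adjusted p = 0.00217). The neutrophil list also held mpx and lyz, and no gene under these names was called. The means of mmp13a and mmp9 were 1480 and 2179 at 100 nM, against 235 and 587 in control, so these genes carried much of the difference in the sum. Of 9 osteoclast markers tested 3 rose and 0 fell (2 and 0 with equal totals), and those that rose were acp5b, mmp9 and tcirg1a. The summed value of the list was 6505 to 9730 in 100 nM pools and 3667 to 5818 in control pools, and mmp9 carried much of this difference as well. The genes acp5b, mmp9 and tcirg1a also stand in other lists here, mmp9 among the neutrophil markers. Of 28 macrophage markers tested 4 rose and 2 fell, and the sums overlapped, at 4986 to 6461 in 100 nM pools and 4654 to 5661 in control pools. Those with the lowest p were marco, a scavenger receptor gene (1.82, adjusted p = 0.000277), lgals3bpb (−2.29, adjusted p = 0.000534) and the transcription factor gene irf8 (1.01, adjusted p = 0.00303). The part of these cells in the cathepsin and LAMP values was not tested.

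Of 11 markers of lysosome-rich enterocytes, the gut cells that take up protein, 2 rose and 0 fell (2 and 1 with equal totals), DAB2 (1.15, adjusted p = 8.68e-05) and fabp6 (1.40, adjusted p = 0.00685), with sums of 19593 to 25583 in 100 nM pools and 14786 to 21845 in control pools. The sums overlapped, and the median log2 fold change over the list was −0.01, against −0.02 over all genes tested. The list also named ctsbb, which was left out of these counts as a cathepsin described above. Its log2 fold change was −0.76 (adjusted p = 0.0551), and −0.94 with equal totals (adjusted p = 0.0399). Of all genes tested 9.63% rose and 7.9% fell. Of 14 ionocyte markers, cells whose acid secretion uses the vacuolar ATPase, 1 rose and 2 fell (0 and 2 with equal totals). The gene that rose was atp1a1a.5 (0.47, adjusted p = 0.0484). The 2 that fell encode ammonia channels, rhcgl1 (−3.58, adjusted p = 0.000807) and rhcga (−2.21, adjusted p = 0.00135), and the summed values overlapped, at 15711 to 23581 in 100 nM pools and 14914 to 36871 in control pools. Of 11 pigment cell markers 3 rose and 0 fell (1 and 0 with equal totals), namely slc45a2 (1.13, adjusted p = 8.4e-05), oca2 (0.61, adjusted p = 0.0257) and pmela (0.50, adjusted p = 0.0262). Of 15 exocrine pancreas markers 0 rose and 7 fell, with a median of −1.63. Those with the lowest p were prss59.1 (−1.31, adjusted p = 0.0185), ela2l (−1.72, adjusted p = 0.0214) and ela3l (−1.69, adjusted p = 0.0221). The pancreas sums overlapped, at 40946 to 167288 in 100 nM pools and 165328 to 267482 in control pools. The lowest was that of 100 nM replicate 1. Of 8 notochord and 3 hatching gland markers 0 were called by limma. Of these, 1 and 0 had an unadjusted p under 0.05, for which the share of all genes tested was not counted. No listed marker was at 0 in all libraries, and the part of these cell types in the results was not tested.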

How the data were processed

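RNA-seq was measured in 12 libraries, 3 pools of 10 larvae in each of 4 groups. Per the labels' protocols, the libraries were stranded and poly(A)-selected and had 42000000 read pairs on average. The submitters' processing notes list DESeq2 1.10.1, RSEM 1.2.28, STAR 2.5.1b and CASAVA, beside the build GRCz10, without saying what each was used for. The deposited values were treated as a score, since the file headers call them normalised and they are whole numbers that are no longer raw counts. The counting error of single values is therefore unknown.

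Values were transformed to log2(value + 1), where the pseudocount of 1 understates the fold changes of low genes. They were fitted with limma 3.58.1 (R 4.3.3, eBayes with a variance trend) over all 12 libraries without a replicate block. The fit covered 22404 genes, each at 10 or more in 3 or more libraries, and Benjamini-Hochberg adjustment ran over all of them (threshold 0.05). Tables were made in Python 3.11.15 with pandas 2.3.3, and the test was checked on simulated data. Of the 76 identifiers matched by name, 75 were in the gene name table used here and 58 had the same symbol there.

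The members and gene lists were chosen with earlier results of these data known, and the neuron list after the values had been seen. By rule, values in every library are given for the called members with the lowest p, up to 8 each of cathepsins, pump and autophagy genes, and for the LAMP genes. Other members shown pool by pool were chosen after their values were seen. Of the other lists, up to 3 called genes with the lowest p are named. Genes of the name rule were left out of the marker lists, namely ctsbb (lysosome-rich enterocytes), ctsk (osteoclasts) and ctslb (hatching gland). Alternatives were other pseudocounts and filters, equal totals, quantile normalisation, the replicate block, only the groups compared, other eBayes settings and leaving out each library.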

Additional observations from a re-analysis of the deposited data

How the results depend on the processing

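With all libraries scaled to equal totals the median log2 fold change at 100 nM changed sign to −0.03 for the pump genes, −0.08 for the other pump and assembly genes, −0.03 for the TFEB and mTORC1 list and −0.11 for the pigment cell markers (−0.04 with quantile normalisation). The median over all genes tested also moved down, from −0.02 with the deposited scaling to −0.205 with equal totals. Equal totals gave medians of 0.24 for cathepsins, 0.37 for LAMP genes and 0.11 for autophagy genes, 4 autophagy genes called and 11 genes in the joint test. Of the 24 genes called, 15 stayed called with equal totals and 21 with quantile normalisation. With only the groups compared in the fit, 6 genes were called at 100 nM (3 cathepsins, 0 pump genes, 2 autophagy genes and 1 LAMP gene) and 7 between 100 and 30 nM, against 5.15% and 5.2% of all genes tested. This fit has fewer samples behind its spread. Leaving out 1 library gave 15 to 33 genes called at 100 nM, 5 to 9 cathepsins, 1 to 9 pump genes, 6 to 12 autophagy genes, 9 to 20 genes in the joint test and 6 to 16 between 100 and 30 nM. Over all genes tested these fits gave 2287 to 4634 genes called at 100 nM and 1041 to 2489 between 100 and 30 nM. Of the 24 calls, 13 held in all 12 of these fits. Pseudocounts of 0.5 and 10, no filter and robust eBayes left 24 genes called, a stricter filter (50 in 3 libraries) 23 and no variance trend 22. The cause of these differences was not tested.

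The labels number the replicates 1 to 3 in each group. Deviations from the group means correlated at −0.0202 to 0.578 between libraries of the same number (13 of 18 pairs over 0.1) and at −0.603 to 0.207 between those of different numbers, and the labels do not say what a number marks, so the numbers were not used as pairs. All libraries numbered 1 and 2 correlated best with a library of their own number (pairs at 0.293 to 0.578). This is a hint from the data and not from the design. By contrast, 100 nM replicate 3 (0.207) and 3 nM replicate 3 (0.153) correlated best with control replicate 1. With the replicate block, 38 genes were called at 100 nM (34 higher, 4 lower, against 34.3% of all genes tested), 1 at 30 nM (GABARAPL1, adjusted p = 0.0424, against 3.47%), 2 at 3 nM (GABARAPL1, 0.0349, higher, and atp6v1ba, 0.0495, lower, against 5.51%), 31 between 100 and 30 nM (against 20.3%) and 39 in the joint test. Of the 29 pump genes 13 were called at 100 nM (10 higher, 3 lower), and all 24 genes called without the block were among the 38. The cathepsin gene ctsbb was also called lower with the block (adjusted p = 0.0216).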
